A study of Mus musculus with 10 samples.

Results

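A pair of stages of early lymphoid development in adult mouse bone marrow was compared: common lymphoid progenitors (CLPs) that do not yet carry Ly6D, and lymphoid-primed multipotent progenitors (LMPPs) that do not yet carry CD127. The arrays were chosen by their titles, the 2 of Ly6D- CLPs and the 3 of CD127- LMPPs, 5 of the 10 arrays of the series. Ly6D- CLPs were lineage-negative cells sorted for low cKit, low Sca-1, high Flt3, CD127 and no Ly6D. CD127- LMPPs were lineage-negative cells sorted for high cKit, high Sca-1, high Flt3 and no CD127. The other 5 arrays, 2 of Ly6D+ CLPs (the same gate, with Ly6D) and 3 of CD127+ LMPPs (the LMPP gate, with CD127), are used for neighbouring values and share in the estimate of the spread. All cells came from adult C57BL/6 mice with no treatment named. The study divided LMPPs by CD127 and set both kinds against CLPs.

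LMPPs are progenitors that have mostly lost the capacity to make platelets and red cells and can still make myeloid and lymphoid cells, whereas CLPs give rise mainly to B, T, natural killer (NK) and innate lymphoid cells. CD127, which Il7r encodes, is a receptor chain for interleukin 7 and pairs with the common γ chain and signals through Jak1, Jak3 and Stat5. Within the CLP gate, Ly6D marks cells that have started the B cell programme under E2A, Ebf1 and Foxo1, while Ly6D- cells keep wider lymphoid potential.

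A gene value is the mean of its probe sets on a scale read as log2, so a difference of 1 is 2-fold. Genes were compared with limma, with p-values adjusted over all 23152 genes, and a gene is called higher or lower at an adjusted p under 0.05. A gene value under 4.43, the 95th percentile of 1419 sensory receptor genes that blood progenitors are not known to use, is treated as low signal. Where the dimmer group lay under it, the fold change is a lower bound against that limit. Whether the replicates came from separate animals or sorts is not in the labels, and p-values therefore reflect no more than the spread among these arrays. No source used here gives scan dates or batches. The sample numbers of the CLP arrays and of the LMPP arrays form separate blocks in the series. A run shared by the arrays of 1 group, or by all CLP or all LMPP arrays, cannot be told apart from the cell type. The 2 Ly6D- CLP arrays correlated at Pearson r = 0.973 across genes, the lowest of the pairs within a group (0.973 to 0.986), and array 1 was closer to the Ly6D+ CLP arrays (0.979 and 0.977) than to its own replicate.

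The genes of the sorted proteins were read first. Il7r stood at 9.34 and 9.28 in Ly6D- CLPs, against 3.84, 4.70 and 4.43 in CD127- LMPPs, at least 27.6-fold higher (log2 difference 4.99 ± 0.21 SE, adjusted p = 2.61e-06). Kit, the stem cell factor receptor, was 7.50 and 7.73 in Ly6D- CLPs and 8.67, 8.74 and 8.67 in CD127- LMPPs (fell by 1.08 on the log2 scale, adjusted p = 0.0016). Both followed their gates, with no overlap between the groups, but Kit did not pass when its brightest probe set stood for the gene (-0.95). In these sorted populations, fewer cells with a transcript and less of it per cell cannot be told apart. Ly6d was 5.59 and 6.17 in Ly6D- CLPs and 4.77, 4.91 and 4.61 in CD127- LMPPs (log2 difference 1.12, adjusted p = 0.00614, not passing with the brightest probe set, 0.87). The mean of Ly6D+ CLPs was 11.33, so the Ly6D- sort lay far below the Ly6D+ one. Flt3, in the high gate of both groups, was 10.21 and 10.29 in Ly6D- CLPs and 9.73, 9.92 and 9.83 in CD127- LMPPs, a difference of 0.42 that did not pass (adjusted p = 0.0896) but did with quantile normalization, without dim genes and with trend and robust settings. Ly6a, which encodes Sca-1, did not separate the groups as the gate did: it was 5.98 and 5.04 in Ly6D- CLPs and 5.63, 5.99 and 5.82 in CD127- LMPPs, with no difference passing the test (log2 difference -0.31, adjusted p = 0.696). Its sign turned without Ly6D- CLP array 2 (0.16) and with the brightest probe set (0.13).

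Between Ly6D- CLPs and CD127- LMPPs, 1643 of 23152 genes were called (7.1%), 678 higher (2.93%) and 965 lower (4.17%) in Ly6D- CLPs. Of these, 518 (2.24% of all genes) differed by 2-fold or more, 232 higher and 286 lower. The median difference over all genes was -0.00281. The arrays of the groups did not overlap in 8483 genes (36.6%), among them all 1643 called, and 124 called genes had both group means under the low-signal limit. A lack of overlap in a called gene therefore adds nothing to its call. Single arrays weighed on the total: 809 genes were called without Ly6D- CLP array 1, 892 without array 2 and 808 without CD127- LMPP array 1. Of the 1643 genes, 619 (37.7%) were still called without Ly6D- CLP array 1 and 737 (44.9%) without array 2.

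**Figure D1:**
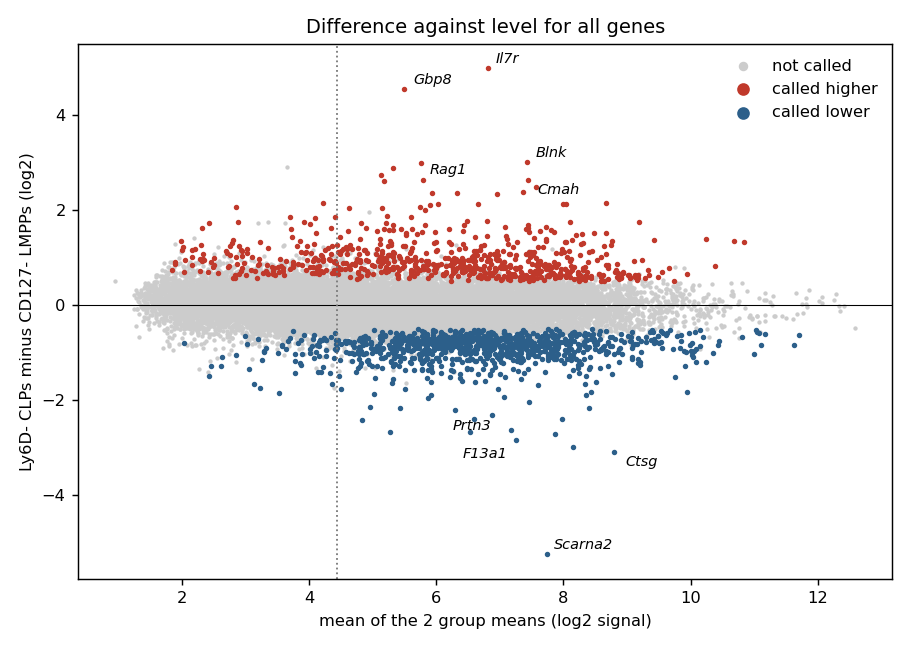
Each point is 1 of 23152 genes, with its level (mean of the 2 group means, log2 signal) on the horizontal axis and the log2 difference, Ly6D- CLPs minus CD127- LMPPs, on the vertical axis. The 678 genes called higher are red, the 965 called lower are blue, and the dotted line is the low-signal limit of 4.43; Il7r (4.99) and Gbp8 (4.55) lie at the top, and Scarna2 (-5.25) at the bottom.

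Genes of the antigen receptor recombination machinery and the first B lineage genes were higher in Ly6D- CLPs. Rag1, which encodes the catalytic subunit of the V(D)J recombinase, was 7.13 and 7.09 in Ly6D- CLPs and 4.45, 4.35 and 4.60 in CD127- LMPPs, 6.23-fold higher (log2 difference 2.64 ± 0.16 SE, adjusted p = 1.69e-05). Its partner Rag2 was 6.98 and 7.01 in Ly6D- CLPs and 4.91, 5.58 and 5.71 in CD127- LMPPs (log2 difference 1.60, adjusted p = 0.00411), which did not pass with the brightest probe set (1.29). Dntt, the terminal transferase that adds bases at the joins, was 11.56 and 11.46 in Ly6D- CLPs and 9.93, 10.14 and 10.46 in CD127- LMPPs (log2 difference 1.33, adjusted p = 0.00129). All 3 genes separated the groups without overlap, and Dntt was already among the bright genes in CD127- LMPPs. Of 12 recombination and end joining genes, 6 rose and none fell: these 3 with Xrcc6 and Xrcc5, which encode the Ku proteins that hold broken ends (log2 differences 1.11 and 1.09), and Dclre1c, which encodes the hairpin-opening nuclease Artemis (0.72). Xrcc5 lost its call without Ly6D- CLP array 1 (1.03) or 2 (1.15) or CD127- LMPP array 1 (0.87), and Dclre1c without Ly6D- CLP array 1 (0.77) or 2 (0.67) or CD127- LMPP array 1 (0.71) or 3 (0.63). The ligation genes Lig4, Xrcc4 and Nhej1 did not pass (0.39, -0.02 and -0.06). The median over the list was 0.557.

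Among B lineage genes, 9 of 22 rose and none fell, with a median of 0.261 over the list. Blnk, the adaptor that links Syk to later steps of B cell receptor signalling, was 8.98 and 8.87 in Ly6D- CLPs and 5.88, 5.88 and 5.98 in CD127- LMPPs, 8.03-fold higher (log2 difference 3.01 ± 0.15 SE, adjusted p = 4.85e-06). Ebf1, the transcription factor that specifies B cells, was 5.13 and 5.46 in Ly6D- CLPs and 2.90, 3.33 and 3.20 in CD127- LMPPs, at least 1.82-fold higher (log2 difference 2.16, adjusted p = 0.000187). The CLP arrays thus lay above the low-signal limit for Ebf1 and the LMPP arrays under it. The remaining members that rose were Rag1, Rag2, the kinase gene Blk (1.57), Bank1 (1.56), the factor genes Irf4 (1.39) and Spib (0.98), and Cd72 (0.95). Blk lost its call without Ly6D- CLP array 1 (1.36) or 2 (1.77) or CD127- LMPP array 1 (1.42) or 2 (1.34). Blk, Cd72 and Spib did not pass with the median probe set, and Spib also not with the brightest one. Pax5, the factor that commits cells to the B lineage, was 4.51 and 4.71 in Ly6D- CLPs and 4.61, 4.68 and 4.99 in CD127- LMPPs, and the groups overlapped (adjusted p = 0.658). Genes of the pre-B cell receptor and its signalling chain, Vpreb1 (0.27), Igll1 (0.19) and Cd79a (0.15), gave low signal in both groups and did not pass, except Vpreb1 with the brightest probe set (1.54), and Cd79b passed without dim genes and with trend and robust settings only (-0.57).

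**Figure D2:**
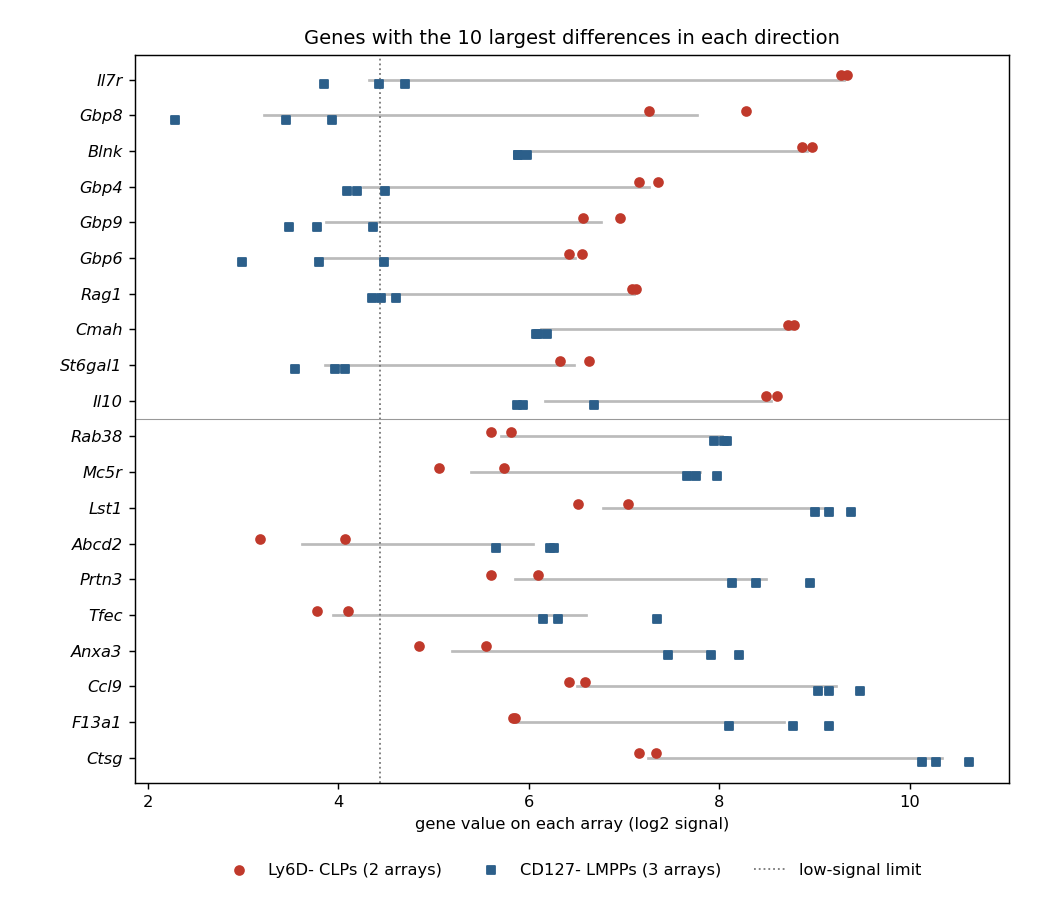
Gene value on each array (log2 signal, horizontal axis) for the genes with the 10 largest increases (top) and the 10 largest decreases (bottom), with Ly6D- CLPs as circles above CD127- LMPPs as squares in each row and a grey line between the group means. The 20 genes were chosen among those whose arrays do not overlap. The squares of Il7r, Gbp8, Gbp4, Gbp9, Gbp6, Rag1 and St6gal1 scatter around or under the low-signal limit (dotted).

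Of 20 early lymphoid genes, 6 rose (Il7r, Rag1, Rag2, Dntt, Lax1 and Mef2c) and Ikzf2 fell, with a median of 0.412 over the list, and the place of Il7r in this count was set by the gates. Mef2c, a transcription factor of early lymphoid progenitors, was 9.42 and 9.41 in Ly6D- CLPs and 8.91, 8.85 and 8.92 in CD127- LMPPs (log2 difference 0.52, adjusted p = 0.0367). Its call was lost without any 1 of the 5 arrays (0.50 to 0.54) and with either choice of a single probe set, and that of Lax1, a lymphocyte adaptor gene (0.96), without Ly6D- CLP array 1 (1.22) or 2 (0.70) or CD127- LMPP array 1 (0.73) or 2 (1.05). Ikzf2 encodes Helios, a relative of Ikaros, and was 5.99 and 6.20 in Ly6D- CLPs and 6.85, 6.78 and 7.05 in CD127- LMPPs (fell by 0.80 on the log2 scale, adjusted p = 0.0278). The call of Ikzf2, the single member that fell, was lost without Ly6D- CLP array 1 (-0.69) or 2 (-0.90) or CD127- LMPP array 1 (-0.82) or 3 (-0.72), each of which left a count of 0. Foxo1 (0.32), Ikzf1 (0.43), Tcf3 (-0.39), Satb1 (0.39) and Bcl11a (0.28), transcription factor genes of the same list, did not pass, except Ikzf1 with quantile normalization, without dim genes and with trend and robust settings.

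The promoters of a pair of genes that rose and a pair that fell are shown to give the sequence upstream of genes among those with large differences, as 300 bases around the annotated start, most of them before it, from RefSeq on GRCm38.p6. Capitals mark letters that match, on either strand, CAGCTG (the E box that E proteins bind), TGTGGT (Runx), AGGAAG (Ets factors such as PU.1), TTNCNNAA (C/EBP), CCCNNGGG (Ebf1) or AGATAA, a motif of erythroid and T cell factors, and runs of different motifs can overlap.
Il7r promoter, chr15:9529827-9530126, strand -: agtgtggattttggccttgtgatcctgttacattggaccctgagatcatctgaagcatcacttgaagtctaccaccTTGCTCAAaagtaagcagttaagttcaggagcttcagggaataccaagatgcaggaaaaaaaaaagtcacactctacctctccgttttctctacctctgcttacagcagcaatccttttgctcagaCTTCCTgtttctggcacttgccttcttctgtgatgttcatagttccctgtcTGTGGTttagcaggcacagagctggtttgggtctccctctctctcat
Rag1 promoter, chr2:101649483-101649782, strand -: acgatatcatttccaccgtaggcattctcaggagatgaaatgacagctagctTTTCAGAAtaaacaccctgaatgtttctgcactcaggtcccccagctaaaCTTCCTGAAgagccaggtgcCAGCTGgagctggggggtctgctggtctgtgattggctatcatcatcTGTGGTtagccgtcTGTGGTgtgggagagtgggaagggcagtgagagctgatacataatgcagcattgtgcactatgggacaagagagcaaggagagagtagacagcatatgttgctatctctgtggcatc
Ctsg promoter, chr14:56102525-56102824, strand -: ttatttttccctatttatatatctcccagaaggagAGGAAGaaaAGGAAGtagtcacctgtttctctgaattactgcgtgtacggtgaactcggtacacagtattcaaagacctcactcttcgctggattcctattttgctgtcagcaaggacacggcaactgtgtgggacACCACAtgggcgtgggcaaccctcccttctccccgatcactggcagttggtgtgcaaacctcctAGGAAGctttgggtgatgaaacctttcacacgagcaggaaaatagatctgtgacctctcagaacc
Ccl9 promoter, chr11:83578587-83578886, strand -: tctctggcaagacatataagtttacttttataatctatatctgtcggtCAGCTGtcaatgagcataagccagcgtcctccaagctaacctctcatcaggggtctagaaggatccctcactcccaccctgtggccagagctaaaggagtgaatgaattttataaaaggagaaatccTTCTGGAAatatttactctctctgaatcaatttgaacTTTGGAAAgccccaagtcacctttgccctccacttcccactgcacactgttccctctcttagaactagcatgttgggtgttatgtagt
The Rag1 window holds CAGCTG once, TGTGGT at 2 places, AGGAAG once and TTNCNNAA at 2 places. The Ctsg window holds AGGAAG at 3 places and TGTGGT once, and the Ccl9 window holds CAGCTG once and TTNCNNAA at 2 places. Windows of Blnk, which rose, and Tfec, which fell, were searched too and are not shown. Blnk holds AGGAAG and TTNCNNAA once each, and neither CAGCTG nor TGTGGT. Tfec holds TTNCNNAA at 4 places, AGGAAG at 3 and TGTGGT once. Shares were taken over 504 genes that rose, 774 that fell and the 17713 measured genes with a promoter, and over all 32851 promoters. A gene counted where any of its promoters held the motif. The share of all promoters counts each promoter by itself, so it is not on the same footing as the shares of genes. CAGCTG stood in 21.4% of genes that rose and 12.7% of those that fell, against 18.2% of measured genes and 16.3% of all promoters. CCCNNGGG stood in 23.4% of those that rose and 18.1% of those that fell, against 17.9% of measured genes and 13.7% of all. The shares of genes that fell and of measured genes were thus close for CCCNNGGG. TGTGGT stood in 21.6% of those that rose and 15.6% of those that fell, against 16.7% of measured genes and 16.8% of all. AGGAAG stood in 42.7% and 35.9%, against 37.2% of measured genes and 35.4% of all. TTNCNNAA was in a smaller share of both called groups, 39.5% of those that rose and 37.0% of those that fell, than of measured genes (41.0%), with 40.7% of all. AGATAA stood in 12.1% and 6.72%, against 11% of measured genes and 11.2% of all. A match of letters is a description and shows no binding, and no test was made.

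Of 17 genes of IL-7 receptor signalling, 6 rose and none fell, with a median of 0.232. Il7r, whose protein the groups were sorted on, is 1 of the 6, so its place in the count was set by the gates. Il2rg, the common γ chain that pairs with CD127, was 9.41 and 9.34 in Ly6D- CLPs and 8.20, 8.08 and 8.08 in CD127- LMPPs, 2.39-fold higher (log2 difference 1.26, adjusted p = 0.00133). Cish, a feedback inhibitor induced by Stat5, was 6.17 and 5.93 in Ly6D- CLPs and 4.30, 4.67 and 4.43 in CD127- LMPPs (log2 difference 1.58, adjusted p = 0.00129), and did not pass with the brightest probe set (0.51). Bcl2l11, which encodes the death-promoting protein Bim, was 8.59 and 8.52 in Ly6D- CLPs and 7.64, 7.62 and 7.39 in CD127- LMPPs (log2 difference 1.00, adjusted p = 0.00475; 1.58 with the median probe set). The groups did not overlap in these 3 genes. The feedback gene Socs2 (0.88) and the kinase gene Jak1 (0.51) also rose, but Socs2 lost its call without Ly6D- CLP array 2 (0.70), and Jak1 without any 1 of the 5 arrays (0.45 to 0.57), with either single probe set and with median centring. Jak3 (-0.16), Stat5a (-0.34), Stat5b (-0.23) and the survival genes Bcl2 (-0.05) and Mcl1 (0.29) did not pass. Bcl2l11 was the 1 member that passed among 16 survival and death genes (6.25%, near the 7.1% of all genes called), and none of them fell.

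Some members of the innate lymphoid and T lineage lists rose, while most did not pass. Among the 25 genes listed for innate lymphoid cells and NK cells, 11 were called higher and Nkg7 lower (-0.56), with a median of 0.377. Il18r1, a chain of the IL-18 receptor, was 7.45 and 7.55 in Ly6D- CLPs and 4.85, 5.27 and 5.30 in CD127- LMPPs, 5.13-fold higher (log2 difference 2.36 ± 0.17 SE, adjusted p = 6.02e-05). Tox, a nuclear factor needed for NK and innate lymphoid development, was 7.77 and 7.59 in Ly6D- CLPs and 5.48, 6.07 and 6.16 in CD127- LMPPs (log2 difference 1.77, adjusted p = 0.000807). Both genes separated the groups by more than the spread within either. Gzmc, a granzyme gene, was 4.81 and 4.79 in Ly6D- CLPs and 3.17, 3.04 and 2.96 in CD127- LMPPs, at least 1.29-fold higher (adjusted p = 0.00237), with a log2 difference of 1.74 and of 2.67 with the brightest probe set. The other members that rose were Tcf7, Il2rg, the cytokine receptor genes Il2rb (1.29) and Il17rb (0.93), the granzyme gene Gzmb (0.92), and Ets1 (0.82), Itga4 (0.79) and Nfil3 (0.76). Gzmb (0.79 to 1.04) and Ets1 (0.75 to 0.88) lost their calls without any 1 of the 5 arrays, Nfil3 without Ly6D- CLP array 2 (0.55) or CD127- LMPP array 1 (0.75) or 3 (0.68), and Il17rb without Ly6D- CLP array 1 (0.81). Il2rb did not pass with the brightest probe set. Itga4, an integrin chain used in homing, lost its call without CD127- LMPP array 1 (0.69) and without Ly6D- CLP array 2 (0.67). The count was 7 without Ly6D- CLP array 2 and 7 without CD127- LMPP array 1, and Nkg7 lost its call without any 1 of the 5 arrays (-0.59 to -0.52), which left 0 that fell. Of the other 13 members, which did not pass, Id2 differed by -0.11, Gata3 by 0.14 and Zbtb16 by 0.45, and the NK cell genes Ncr1 (0.06) and Eomes (0.14) were dim in both groups.

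Among 20 genes of the T lineage and of Notch signalling, 5 were called higher and none lower, with a median of 0.308. Tcf7, which encodes the T cell factor TCF-1, was 6.61 and 6.48 in Ly6D- CLPs and 5.12, 4.91 and 5.0 in CD127- LMPPs, 2.90-fold higher (log2 difference 1.54, adjusted p = 0.00103). This rested on the mean over probe sets, since the brightest one differed by 0.15 and did not pass. Hes1, a repressor and target of Notch, was 6.52 and 6.99 in Ly6D- CLPs and 5.29, 5.11 and 5.24 in CD127- LMPPs, 2.91-fold higher (log2 difference 1.54, adjusted p = 0.0017). Cd5, a receptor of T cells and some B cells, differed by 1.30 (adjusted p = 0.00835) and did not pass without Ly6D- CLP array 2 (0.96). Lat, a T cell receptor adaptor, differed by 0.96 (adjusted p = 0.0222) and lost its call without CD127- LMPP array 1 (0.90) or 2 (0.90) or Ly6D- CLP array 1 (0.91) or 2 (1.00). Cd247, a signalling chain of the T cell receptor (0.74), was the other member that rose, and lost its call without Ly6D- CLP array 1 (0.58) or 2 (0.90) or CD127- LMPP array 1 (0.79) or 3 (0.60). The count was 2 without Ly6D- CLP array 2 and 3 without CD127- LMPP array 1. The Notch target genes Dtx1 (0.18) and Nrarp (-0.48), the receptor genes Notch1 (0.50), Notch2 (0.18) and Notch3 (0.06), and the T cell genes Bcl11b (-0.35), Ptcra (-0.13) and Cd3e (-0.48) did not pass, except Bcl11b with the brightest probe set (-1.33) and Notch1 with trend and robust settings.

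Guanylate-binding protein genes, which encode GTPases induced by interferon, made up 4 of the 10 largest increases. Gbp8 was 8.28 and 7.26 in Ly6D- CLPs and 2.28, 3.45 and 3.94 in CD127- LMPPs, at least 10.1-fold higher (log2 difference 4.55 ± 0.51 SE, adjusted p = 0.000812). Gbp4 was 7.16 and 7.36 in Ly6D- CLPs and 4.20, 4.09 and 4.48 in CD127- LMPPs, at least 7.0-fold higher (log2 difference 3.00, adjusted p = 2.18e-05). Gbp9 and Gbp6 were at least 5.03-fold and 4.12-fold higher, and Gbp9 did not pass with the brightest probe set (1.37). In all 4 genes the LMPP arrays lay near or under the low-signal limit and the CLP arrays well above it. These genes are near to each other in sequence, so their probe sets can share signal. Of 11 genes of the family, a list made after the values were seen, 7 rose and none fell, against 5 without Ly6D- CLP array 1 and 4 without array 2. Gbp2 (-0.24) and Gbp3 (0.69) did not pass, although Gbp2 passed as lower with the brightest probe set (-1.54) and Gbp3 as higher with quantile normalization, without dim genes and with trend and robust settings. The other members that rose were Gbp11 (2.04), Gbp10 (1.72) and Gbp7 (1.12).

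Of 22 interferon response genes, 7 rose and none fell, with a median of 0.572, and Gbp6 and Gbp8 were 2 of the 7. Ifi44 was 7.04 and 7.15 in Ly6D- CLPs and 5.94, 6.38 and 5.98 in CD127- LMPPs (log2 difference 0.99, adjusted p = 0.00582, not passing with the brightest probe set). The antiviral genes Mx2 (0.78), Oas2 (0.73) and Ddx58 (0.67) rose by less than 2-fold. Their calls were lost without single arrays: Mx2 without Ly6D- CLP array 1 (0.80) or 2 (0.77) or CD127- LMPP array 1 (0.63) or 3 (0.78), Oas2 without Ly6D- CLP array 2 (0.62) or CD127- LMPP array 1 (0.73) or 2 (0.68), and Ddx58 without Ly6D- CLP array 1 (0.72) or 2 (0.62) or CD127- LMPP array 1 (0.56) or 3 (0.65). Rsad2, which encodes viperin, differed by 0.96 (adjusted p = 0.0362) and lost its call without Ly6D- CLP array 2 (0.67) or without CD127- LMPP array 1 (1.05), 2 (0.85) or 3 (0.98). Isg15 (-0.09), Ifit1 (0.41) and Irf7 (0.59) did not pass, except Irf7 without Ly6D- CLP array 1 (0.82), with quantile normalization, without dim genes and with trend and robust settings. Ifit3 was lower without passing (log2 difference -1.38, adjusted p = 0.0579), and passed without dim genes, with trend and robust settings and in the 5 arrays alone. The count of members that rose was 3 without Ly6D- CLP array 2 and 3 without CD127- LMPP array 1, and 4 without CD127- LMPP array 3.

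Gimap genes encode another family of GTPases, which act in lymphocyte survival. Of 8 measured, a list made after the values were seen, 7 rose and none fell, with differences of 1.04 to 1.99. Gimap6 was 9.46 and 9.41 in Ly6D- CLPs and 7.65, 8.10 and 7.98 in CD127- LMPPs, 2.88-fold higher (adjusted p = 0.0012). Gimap7 differed most, at 6.51 and 7.11 in Ly6D- CLPs and 4.06, 5.38 and 5.01 in CD127- LMPPs (log2 difference 1.99, adjusted p = 0.00572). It did not pass with the median probe set (1.73). With the brightest probe set 3 of the genes passed, and with the median one 4 did.

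A pair of genes that shape sialic acids on the cell surface and a cytokine gene completed the largest increases. Cmah, the hydroxylase that makes N-glycolylneuraminic acid, was 8.79 and 8.73 in Ly6D- CLPs and 6.07, 6.10 and 6.19 in CD127- LMPPs, 6.21-fold higher (log2 difference 2.63 ± 0.13 SE, adjusted p = 4.85e-06). St6gal1, the transferase that makes the α2,6-linked sialic acids bound by the B cell lectin CD22, was 6.63 and 6.33 in Ly6D- CLPs and 3.55, 4.07 and 3.96 in CD127- LMPPs, at least 4.13-fold higher (log2 difference 2.62, adjusted p = 4.77e-05; 4.14 with the brightest probe set). Il10, which encodes the anti-inflammatory cytokine IL-10, was 8.61 and 8.49 in Ly6D- CLPs and 6.68, 5.87 and 5.94 in CD127- LMPPs, 5.22-fold higher (log2 difference 2.38, adjusted p = 0.000807). The CLP arrays of these 3 genes lay close together, and above every LMPP array as the rule that named them required.

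Genes of dendritic cells and MHC class II moved in both directions, 5 of 20 up and 3 down, with a median of 0.229. Siglech, a lectin of plasmacytoid dendritic cells, was 7.63 and 7.80 in Ly6D- CLPs and 5.65, 5.37 and 5.74 in CD127- LMPPs, 4.36-fold higher (log2 difference 2.12 ± 0.18 SE, adjusted p = 0.000195; 1.27 with the brightest probe set). Cox6a2, a cytochrome oxidase subunit that plasmacytoid cells also use, was 10.04 and 10.10 in Ly6D- CLPs and 8.27, 8.61 and 8.07 in CD127- LMPPs (log2 difference 1.75, adjusted p = 0.000358). Cd74, the invariant chain (1.05), the integrin gene Itgax (0.76) and Runx2 (0.59) also rose. Cd74 lost its call without Ly6D- CLP array 1 (1.33) or 2 (0.77) or CD127- LMPP array 2 (1.09) or 3 (0.79), Itgax without Ly6D- CLP array 1 (0.77) or 2 (0.75), and Runx2 without any 1 of the 5 arrays (0.57 to 0.63). The difference in Itgax turned to -0.15, without passing, with the brightest probe set. Ly6c2, a surface protein of monocytes and plasmacytoid cells, was 7.25 and 7.54 in Ly6D- CLPs and 9.89, 9.27 and 8.75 in CD127- LMPPs (fell by 1.91 on the log2 scale, adjusted p = 0.00222), and did not pass with the brightest probe set. Clec9a, a receptor of conventional dendritic cells, was 5.32 and 5.03 in Ly6D- CLPs and 6.27, 6.59 and 6.17 in CD127- LMPPs (adjusted p = 0.0118); it lost its call without Ly6D- CLP array 2 (-1.02), and with the brightest (-0.24) or median (-1.22) probe set. Bst2 was the other member that fell (-0.80) and lost its call without Ly6D- CLP array 1 (-0.73), and Irf8 (-0.39) and Tcf4 (0.29) did not pass. The count of members that rose was 3 without Ly6D- CLP array 1, CD127- LMPP array 2 or CD127- LMPP array 3, and 2 without Ly6D- CLP array 2.

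Myeloid progenitor genes were lower in Ly6D- CLPs. Of 27 genes, 14 fell and 2 rose, with a median of -1.13. Ctsg, the granule protease cathepsin G, was 7.16 and 7.34 in Ly6D- CLPs and 10.63, 10.28 and 10.13 in CD127- LMPPs, 8.55-fold lower (log2 difference -3.10 ± 0.17 SE, adjusted p = 7.62e-06). F13a1, which monocytic cells use to make a clot-stabilising transglutaminase, was 5.83 and 5.85 in Ly6D- CLPs and 9.15, 8.77 and 8.10 in CD127- LMPPs (log2 difference -2.83, adjusted p = 0.000494). Ccl9, a chemokine of myeloid cells, was 6.59 and 6.42 in Ly6D- CLPs and 9.48, 9.15 and 9.04 in CD127- LMPPs (log2 difference -2.72, adjusted p = 0.000123). In each of these 3 genes CD127- LMPP array 1 was the highest and the lowest LMPP array lay more than 2 log2 units above the CLP arrays. Prtn3, the granule protease proteinase 3, was 5.61 and 6.10 in Ly6D- CLPs and 8.95, 8.38 and 8.13 in CD127- LMPPs, 6.23-fold lower (adjusted p = 0.000257). Anxa3, an annexin of granulocytic cells, was 4.85 and 5.55 in Ly6D- CLPs and 8.21, 7.91 and 7.46 in CD127- LMPPs, 6.36-fold lower (adjusted p = 0.000388). The spread between the LMPP arrays was wider in the protease gene Elane, at 5.11 and 5.26 in Ly6D- CLPs and 8.70, 7.04 and 6.43 in CD127- LMPPs (adjusted p = 0.0219), and its call was lost without Ly6D- CLP array 1 (-2.13) or 2 (-2.28).

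Tfec, a factor of the macrophage lineage, was 4.10 and 3.78 in Ly6D- CLPs and 7.35, 6.15 and 6.31 in CD127- LMPPs, at least 4.50-fold lower (adjusted p = 0.00165), and did not pass with the brightest probe set (-1.98). Myeloperoxidase, Mpo, was 8.86 and 9.20 in Ly6D- CLPs and 11.04, 10.82 and 10.71 in CD127- LMPPs (log2 difference -1.83, adjusted p = 0.000297), so its signal stayed well above the low-signal limit in the CLPs. The receptor genes Csf1r and Csf3r, for macrophage and granulocyte colony-stimulating factors, fell by 1.45 and 1.13 on the log2 scale, and neither passed with the brightest probe set. The gene of the factor that starts granulocyte development, Cebpa, was 4.49 and 5.06 in Ly6D- CLPs and 5.82, 5.92 and 5.90 in CD127- LMPPs (log2 difference -1.11, adjusted p = 0.0159), with the call lost without Ly6D- CLP array 1 (-0.82). Hk3 (-2.17), Ms4a6c (-2.16) and Nrp1 (-1.37) were the remaining members that fell. Gfi1 (-0.34), Cebpb (-0.45) and Lyz2 (-0.65) did not pass. The 2 members that rose were Cd33, a sialic acid-binding lectin, at 9.05 and 9.03 in Ly6D- CLPs and 7.37, 7.60 and 7.69 in CD127- LMPPs (log2 difference 1.49, adjusted p = 0.00082), and the factor gene Klf4 (0.87, adjusted p = 0.015). Klf4 lost its call without Ly6D- CLP array 1 (0.94) or 2 (0.81) or CD127- LMPP array 1 (0.82), which left 1 member that rose.

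The other large decreases were in genes of varied function. Abcd2, a peroxisomal transporter of fatty acids, was 4.07 and 3.17 in Ly6D- CLPs and 6.22, 6.27 and 5.65 in CD127- LMPPs, at least 3.06-fold lower (adjusted p = 0.0011), and did not pass with the brightest probe set (-1.76). Lst1, a small membrane protein of leukocytes, was 6.52 and 7.04 in Ly6D- CLPs and 9.16, 9.38 and 9.01 in CD127- LMPPs, 5.28-fold lower (adjusted p = 0.000195). Mc5r, a melanocortin receptor, was 5.06 and 5.73 in Ly6D- CLPs and 7.66, 7.97 and 7.76 in CD127- LMPPs (log2 difference -2.40, adjusted p = 0.000184). Rab38, a GTPase of lysosome-related organelles, was 5.60 and 5.81 in Ly6D- CLPs and 8.08, 7.95 and 8.05 in CD127- LMPPs, 4.99-fold lower (adjusted p = 2.18e-05). In all 4 genes every CLP array lay below every LMPP array, as the rule that named them required.

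**Figure D3:**
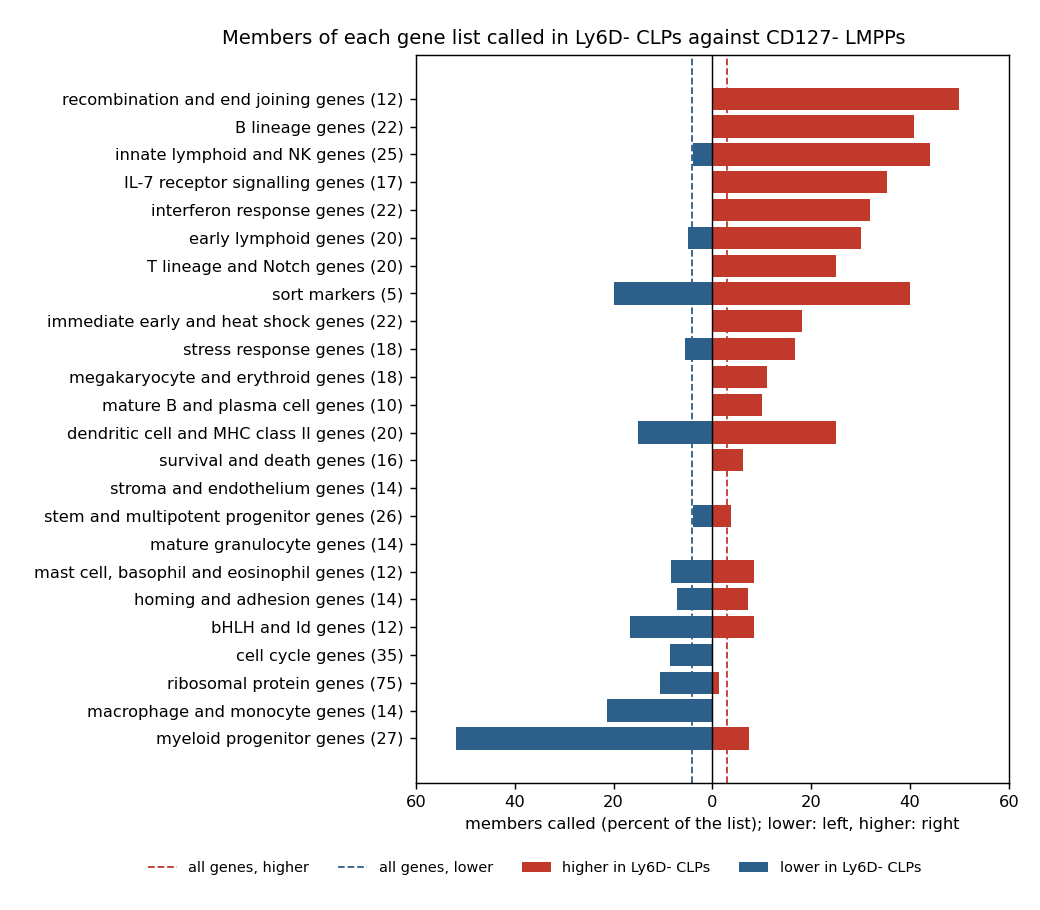
Percent of the measured members (number in parentheses) of each gene list called higher (red, to the right) or lower (blue, to the left) in Ly6D- CLPs against CD127- LMPPs, with dashed lines at the shares over all genes (2.93% higher, 4.17% lower). Recombination genes (6 of 12 higher) stand at the top and myeloid progenitor genes (14 of 27 lower) at the bottom; the lists share members.

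Markers of other marrow cells were read for what the gates could hold. None of 14 mature granulocyte genes passed in limma, with 3 at an unadjusted p under 0.05, and 1 passed without CD127- LMPP array 3. The granulocyte marker Ly6g was at 3.05 and 4.74 in Ly6D- CLPs and 3.16, 2.97 and 3.32 in CD127- LMPPs, with 1 CLP array above the low-signal limit. S100a8 spread most, at 7.46 and 7.38 in Ly6D- CLPs and 7.37, 9.11 and 6.08 in CD127- LMPPs, and the mean level over the list was 4.62 and 4.72 in Ly6D- CLPs and 4.37 to 5.2 in CD127- LMPPs. Mmp8 was lower without passing (-1.18), although it was the gene that passed without CD127- LMPP array 3 (-1.53), and passed too with the replicate block (-1.45) and without dim genes. Its brightest probe set differed by 0.20. None of 14 stroma and endothelium genes passed, and none had an unadjusted p under 0.05 in limma. The smooth muscle actin gene Acta2 differed by -0.38, and by 0.11 without Ly6D- CLP array 2. Of 18 megakaryocyte and erythroid genes, Gfi1b (1.33) and Tfrc, the transferrin receptor (0.78), rose, while the erythroid factor gene Klf1 (0.26) did not pass and Gata1 (0.21) was dim in both groups. Gfi1b did not pass with its brightest probe set, and Tfrc was lost without Ly6D- CLP array 1 (0.69), which left 1 of the 2. The part of any such cells in the other results was not tested.

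Of 14 macrophage and monocyte genes 3 fell and none rose: Ccr2, a chemokine receptor of monocytes (-1.53), Cd14 (-1.08) and Cd68 (-0.98). Ccr2 was 4.95 and 5.22 in Ly6D- CLPs and 6.87, 6.75 and 6.22 in CD127- LMPPs. It lost its call without Ly6D- CLP array 1 (-1.40), and Cd14 without Ly6D- CLP array 1 (-1.13) or 2 (-1.04), and 1 of the list passed without Ly6D- CLP array 1. Cd68 did not pass with the median probe set (-0.81) and differed by -1.52 with the brightest one. The resident macrophage genes C1qb, Mrc1, Siglec1 and Marco gave low signal in each group. Among 12 mast cell, basophil and eosinophil genes, the mast cell protease gene Cpa3 was 5.97 and 6.35 in Ly6D- CLPs and 4.70, 4.17 and 4.54 in CD127- LMPPs (log2 difference 1.69, adjusted p = 0.00129), and differed by 0.53 without passing in its brightest probe set. Mcpt8, a basophil protease gene, was 5.65 and 5.96 in Ly6D- CLPs and 7.48, 7.52 and 7.27 in CD127- LMPPs, 3.08-fold lower (adjusted p = 0.000514). The defining mast cell and basophil genes Fcer1a, Ms4a2 and Cma1 were dim in both groups. Of 10 mature B and plasma cell genes, Ighm passed (0.58, adjusted p = 0.0441), and it lost its call without any 1 of the 5 arrays (0.55 to 0.63). The mature B cell genes Ms4a1 and Cd22 stayed under the limit as well.

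Stem cell genes passed at about the share of all genes. Of 26 stem and multipotent progenitor genes, Gata2 fell and Mllt3 rose (7.69%, against 7.1% of all genes called), with a median of -0.158. Gata2, a factor of stem and mast cell progenitors, was 4.49 and 4.03 in Ly6D- CLPs and 5.87, 5.78 and 5.73 in CD127- LMPPs, at least 2.52-fold lower (adjusted p = 0.00132), and did not pass with the brightest probe set (-0.70). Mllt3 differed by 0.79 (adjusted p = 0.00977) and lost its call without Ly6D- CLP array 2 (0.75) and with the median (0.55) or brightest (0.68) probe set. Mecom (-0.13) and Meis1 (-0.04) did not pass, nor did Hlf (-0.65), Cd34 (-0.51) and Tal1 (-0.67), although these last passed without dim genes. The list held 0 members that rose without Ly6D- CLP array 2 and 2 that fell without CD127- LMPP array 1. Among 12 bHLH and Id genes, the genes of the E protein inhibitors Id1 and Id3 fell. Id3 was 4.57 and 4.81 in Ly6D- CLPs and 6.17, 5.86 and 5.61 in CD127- LMPPs, 2.28-fold lower (adjusted p = 0.0043). Id1 was 4.10 and 4.14 in Ly6D- CLPs and 5.34, 5.19 and 4.87 in CD127- LMPPs, at least 1.62-fold lower (adjusted p = 0.00585, not passing with the brightest probe set). The E protein genes Tcf3 (-0.39), Tcf4 (0.29) and Tcf12 (0.34) did not pass, and Hes1 was the 1 member that rose. Of 14 homing and adhesion genes, Itga4 rose and Ccr2 fell, and Cxcr4 (-0.29) and Ccr9 (1.00, adjusted p = 0.068) did not pass. Ccr9 did pass as higher with the median probe set (1.55), without dim genes and with trend and robust settings. Itga4 was lost without CD127- LMPP array 1 (0.69) or Ly6D- CLP array 2 (0.67), and Ccr2 without Ly6D- CLP array 1 (-1.40), where Ccr9 passed (1.44).

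Cell cycle genes lay somewhat lower in Ly6D- CLPs, and few passed the test. Of 35 measured, 6 had a positive difference, with a median of -0.272, and 14 had an unadjusted p under 0.05, against 5100 of all 23152 genes. In limma 3 fell, 8.57% of the list against 4.17% of all genes, and none rose: Rrm2, a subunit of ribonucleotide reductase (-0.83), Cdc20 (-0.75) and Ccnd1, which encodes cyclin D1 (-0.73). Rrm2 was lost without Ly6D- CLP array 2 (-0.71), Ccnd1 without Ly6D- CLP array 1 (-0.71) or 2 (-0.76) or CD127- LMPP array 1 (-0.69) or 2 (-0.69), and Cdc20 without Ly6D- CLP array 1 (-0.52) or CD127- LMPP array 1 (-0.71) or 3 (-0.70). In each of these fits 1 or 2 of the list passed, and in the fit of the 5 arrays alone none did. Mki67, the gene of the proliferation antigen Ki-67, was 9.41 and 9.33 in Ly6D- CLPs and 9.25, 9.31 and 9.34 in CD127- LMPPs. Top2a, another gene of cycling cells, was 9.49 and 9.40 in Ly6D- CLPs and 9.48, 9.39 and 9.56 in CD127- LMPPs. The groups overlapped in both.

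Of 22 immediate early and heat shock genes, 4 rose and none fell, with a median of 0.0976. The orphan nuclear receptor genes Nr4a2 and Nr4a1, which respond quickly to receptor signals, were the largest. Nr4a2 was 9.04 and 9.46 in Ly6D- CLPs and 7.71, 7.74 and 7.73 in CD127- LMPPs, 2.88-fold higher (adjusted p = 0.000928), and Nr4a1 was 11.25 and 11.48 in Ly6D- CLPs and 9.98, 10.07 and 9.99 in CD127- LMPPs, 2.55-fold higher (adjusted p = 0.00113). Egr3 (1.26) and Fosb (0.93) rose too but were lost without Ly6D- CLP array 2 (0.99 and 0.82), which left 2 of the list. Among the other members, Fos differed by -0.08, Jun by -0.29, Hspa1a by 0.03 and Hspa1b by -0.02, and none of these passed, except Jun with trend and robust settings. Handling of cells is known to raise genes of this list, those that rose among them, and its part in these values was not tested. Of 18 stress response genes, 3 rose and 1 fell. Ddit3, which encodes the stress factor CHOP, was 8.70 and 8.72 in Ly6D- CLPs and 7.34, 7.36 and 7.44 in CD127- LMPPs, 2.51-fold higher (adjusted p = 0.0012). Eif4ebp1, a brake on translation, was 6.49 and 6.40 in Ly6D- CLPs and 7.84, 7.59 and 7.55 in CD127- LMPPs, 2.32-fold lower (adjusted p = 0.00119). Chac1 (0.89) and Ppp1r15a (0.62) lost their calls without Ly6D- CLP array 1 (0.94 and 0.65) or 2 (0.84 and 0.59), which left Ddit3 as the 1 member that rose, and Ppp1r15a also without CD127- LMPP array 1 (0.63). Atf4 (0.23), Asns (-0.08) and Trib3 (0.14) did not pass.

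Of 75 ribosomal protein genes, 8 fell and 1 rose (12% called, against 7.1% of all genes). The median was -0.334, and -0.227 with quantile normalization. The list takes names that begin with Rpl or Rps, pseudogenes such as Rps15a-ps6 included. The mean level over the list was 7.41 and 7.43 in Ly6D- CLPs and 7.67 to 7.74 in CD127- LMPPs. Rpl34 was 5.75 and 6.89 in Ly6D- CLPs and 7.83, 8.06 and 7.60 in CD127- LMPPs (log2 difference -1.51, adjusted p = 0.00997). Ly6D- CLP array 1 was the lower of the 2 in Rpl34, and likewise in Rps27 (5.18 and 5.68), Rps27l (6.84 and 7.51) and Rps7 (6.94 and 7.70). All 4 lost their calls without it (-0.94, -1.03, -0.83 and -0.75), and 2 members then passed in place of 8. Rpl3l, the 1 member that rose (1.04), is a muscle form of a ribosomal protein and did not pass without Ly6D- CLP array 1 (1.02), and Rps27l is a relative of Rps27 known as a target of p53.

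Small RNA genes held the largest difference of all named genes. The lists of small nucleolar and Cajal body RNA genes and of miRNA genes were made, and their members chosen, after the values were seen. Scarna2, which guides modification of spliceosomal RNA, was 4.11 and 6.11 in Ly6D- CLPs and 10.24, 10.25 and 10.60 in CD127- LMPPs, 38.2-fold lower (log2 difference -5.25 ± 0.50 SE, adjusted p = 0.000338). For Scarna2, Ly6D- CLP array 1 lay under the low-signal limit, and its log2 difference was -4.25 without that array and -6.26 without array 2. Scarna13, of the same class, was 6.12 and 7.17 in Ly6D- CLPs and 9.61, 9.67 and 9.66 in CD127- LMPPs, 8.0-fold lower (log2 difference -3.00, adjusted p = 0.000166), with -2.48 without array 1 and -3.52 without array 2. Both CLP arrays lay far below the LMPP arrays and far from each other. Each of these genes rests on 1 probe set. Beside them, the means in Ly6D+ CLPs were 4.20 for Scarna2 and 6.66 for Scarna13, and those in CD127+ LMPPs were 10.30 and 9.47, so the split ran between the CLP and the LMPP arrays. Whether it came from the cells or from how the arrays were handled was not tested. Small nucleolar and Cajal body RNA genes were called in 12% of the list, against 7.1% of all genes (2.93% higher and 4.17% lower). Of 83 small nucleolar and Cajal body RNA genes, 8 fell and 2 rose, with a median of -0.11 over the list, and the 8 were 5 without Ly6D- CLP array 1 and 4 without CD127- LMPP array 1, and the 2 were 1 without Ly6D- CLP array 2.

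Of 500 miRNA genes, 335 had both group means under the low-signal limit. Of the 500, 25 were called (5%), against 7.1% of all genes, so the list was called no more often than genes in general. Among the 14 called with a group mean above the limit, 9 rose and 5 fell. Mir155 was 8.59 and 9.04 in Ly6D- CLPs and 6.45, 6.22 and 6.30 in CD127- LMPPs, 5.63-fold higher (log2 difference 2.49 ± 0.26 SE, adjusted p = 0.000574), read on 1 probe set. Mir142, a miRNA gene of blood cells, was 8.07 and 7.90 in Ly6D- CLPs and 6.75, 7.36 and 6.81 in CD127- LMPPs (log2 difference 1.01, adjusted p = 0.0113), with the call lost without Ly6D- CLP array 1 (0.92). Mir28 was 5.81 and 5.92 in Ly6D- CLPs and 4.48, 4.92 and 4.47 in CD127- LMPPs (log2 difference 1.24, adjusted p = 0.00309). In each of the 3 genes both CLP arrays lay above every LMPP array. Mir19a, of the Mir17-92 cluster, differed by -1.44 (adjusted p = 0.0202) and lost its call without CD127- LMPP array 2 (-1.24) or Ly6D- CLP array 1 (-1.41) or 2 (-1.46). The counts over all 500, with 19 higher and 6 lower, were 9 and 7 without CD127- LMPP array 1 and 12 and 2 without Ly6D- CLP array 2. Others of the 9 that rose above the limit, such as Mir378b (1.15) and Mir505 (1.13), are not shown. The mature RNAs of Mir155, Mir142 and Mir28 are given to identify them, from RefSeq on GRCm38.p6, with bases 2 to 8, the seed, in capitals. A gene value does not separate the arms, and no seed is shared among them.
mmu-miR-155-5p, chr16:84714143-84714165, strand +: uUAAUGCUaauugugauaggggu
mmu-miR-155-3p, chr16:84714182-84714202, strand +: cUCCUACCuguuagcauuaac
mmu-miR-142a-5p, chr11:87756867-87756887, strand +: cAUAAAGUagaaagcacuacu
mmu-miR-142a-3p, chr11:87756903-87756925, strand +: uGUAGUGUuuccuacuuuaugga
mmu-miR-28a-5p, chr16:24827868-24827889, strand +: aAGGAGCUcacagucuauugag
mmu-miR-28a-3p, chr16:24827908-24827929, strand +: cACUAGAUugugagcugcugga

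The neighbouring groups place these differences along the sort. The comparisons share arrays, so their values are given side by side only. Against CD127+ LMPPs, 476 genes (2.06%) were called in Ly6D- CLPs, 147 higher (0.635%) and 329 lower (1.42%). Between CD127+ and CD127- LMPPs, 341 (1.47%) were called, 204 higher (0.881%) and 137 lower (0.592%). Ly6D+ CLPs differed from Ly6D- CLPs in 23 genes (0.0993%), 9 higher (0.0389%) and 14 lower (0.0605%), and from CD127- LMPPs in 2517 (10.9%), 910 higher (3.93%) and 1607 lower (6.94%). Markers of other cells moved with the CD127+ LMPP arrays. Of 14 mature granulocyte genes, 8 were lower in Ly6D- CLPs than in CD127+ LMPPs and 7 higher in CD127+ than in CD127- LMPPs, and their mean level was 4.57 and 5.07 in Ly6D+ CLPs, 4.62 and 4.72 in Ly6D- CLPs, 6.0 to 6.64 in CD127+ LMPPs and 4.37 to 5.2 in CD127- LMPPs. Of 18 megakaryocyte and erythroid genes, 4 were lower in Ly6D- CLPs than in CD127+ LMPPs and 4 higher in CD127+ than in CD127- LMPPs. Without single arrays, the 8 became 2 without Ly6D- CLP array 2 or CD127+ LMPP array 1, 3 without CD127+ LMPP array 2 or 3, 4 without Ly6D- CLP array 1 and 5 without CD127- LMPP array 1, and the 7 became 4 without CD127+ LMPP array 2. The erythroid counts became 1 and 4 without Ly6D- CLP array 2, 2 and 4 without Ly6D- CLP array 1, 2 and 3 without CD127+ LMPP array 1, 5 and 7 without CD127+ LMPP array 2 and 3 and 2 without CD127+ LMPP array 3. The granule peptide gene Camp, chosen after its values were seen, differed by -3.30 on the log2 scale between Ly6D- CLPs and CD127+ LMPPs (adjusted p = 0.00708), and the red cell enzyme gene Car1, chosen likewise, by -3.73 (adjusted p = 0.000715). The part of such cells in the comparisons with CD127+ LMPPs was not tested.

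The mean of Blnk was 9.84 in Ly6D+ CLPs, 8.92 in Ly6D- CLPs, 8.31 in CD127+ LMPPs and 5.92 in CD127- LMPPs. Its step between Ly6D- CLPs and CD127+ LMPPs did not pass as reported (0.61, adjusted p = 0.0654), but passed without dim genes. Il7r (9.31 in Ly6D- CLPs and 9.10 in CD127+ LMPPs, adjusted p = 0.659) and Dntt (11.51 in each, adjusted p = 0.996) did not pass between these groups as reported. Rag1 means were 9.71 in Ly6D+ CLPs, 7.11 in Ly6D- CLPs, 7.69 in CD127+ LMPPs and 4.47 in CD127- LMPPs, and Ebf1 means were 7.85, 5.30, 5.71 and 3.14 in the same order. Both means were higher in CD127+ LMPPs than in Ly6D- CLPs, with no difference passing (adjusted p = 0.0851 and 0.259), except Rag1 without dim genes and with trend and robust settings. Ly6d itself was higher in CD127+ LMPPs, with a mean of 5.88 in Ly6D- CLPs and 8.67 in CD127+ LMPPs (log2 difference -2.79, adjusted p = 0.00031).

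Some genes separated Ly6D- CLPs from both kinds of LMPP, and their values in Ly6D+ CLPs are given beside them. Mir155 had a mean of 9.08 in Ly6D+ CLPs, 8.82 in Ly6D- CLPs and 6.75 in CD127+ LMPPs (log2 difference, Ly6D- CLPs minus CD127+ LMPPs, 2.06, adjusted p = 0.00708), with no difference passing between the CLP groups (adjusted p = 0.836). Ddit3 had a mean of 8.90 in Ly6D+ CLPs, 8.71 in Ly6D- CLPs and 7.43 in CD127+ LMPPs (log2 difference 1.27, adjusted p = 0.00708), and did not pass with the brightest probe set (0.80). Scarna2 differed by -5.19 between Ly6D- CLPs and CD127+ LMPPs (adjusted p = 0.00167), beside -0.06 between the LMPP groups (adjusted p = 0.977). Between the LMPP groups Mir155 differed by 0.43 (adjusted p = 0.551) and Ddit3 by 0.05 (adjusted p = 0.939). In Mir155, Ddit3 and Scarna2 the split thus ran between all CLP and all LMPP arrays. Whether it came from the cells or from how the arrays were handled was not tested for any of them. Ctsg had means of 5.96 in Ly6D+ CLPs, 7.25 in Ly6D- CLPs, 8.51 in CD127+ LMPPs and 10.34 in CD127- LMPPs, and Ly6D- CLPs were lower than CD127+ LMPPs (log2 difference -1.26, adjusted p = 0.00785). F13a1 was different: its mean was 5.84 in Ly6D- CLPs and 5.58 in CD127+ LMPPs (adjusted p = 0.689), against 8.68 in CD127- LMPPs. Csf1r and Mcpt8 also did not pass between Ly6D- CLPs and CD127+ LMPPs (0.44 and -0.03). Tcf7 was highest in Ly6D- CLPs, with a mean of 6.54, against 5.30 in Ly6D+ CLPs, 5.55 in CD127+ LMPPs and 5.01 in CD127- LMPPs. Its difference from CD127+ LMPPs passed (1.00, adjusted p = 0.0255) and was lost without Ly6D- CLP array 1 (0.94) or 2 (1.06) or CD127+ LMPP array 1 (0.91) or 2 (0.94), as with the brightest probe set (0.06). Ly6D+ minus Ly6D- CLPs was -1.25 for Tcf7 and did not pass (adjusted p = 0.0546), but did with median centring, without dim genes and with trend and robust settings.

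**Figure D4:**
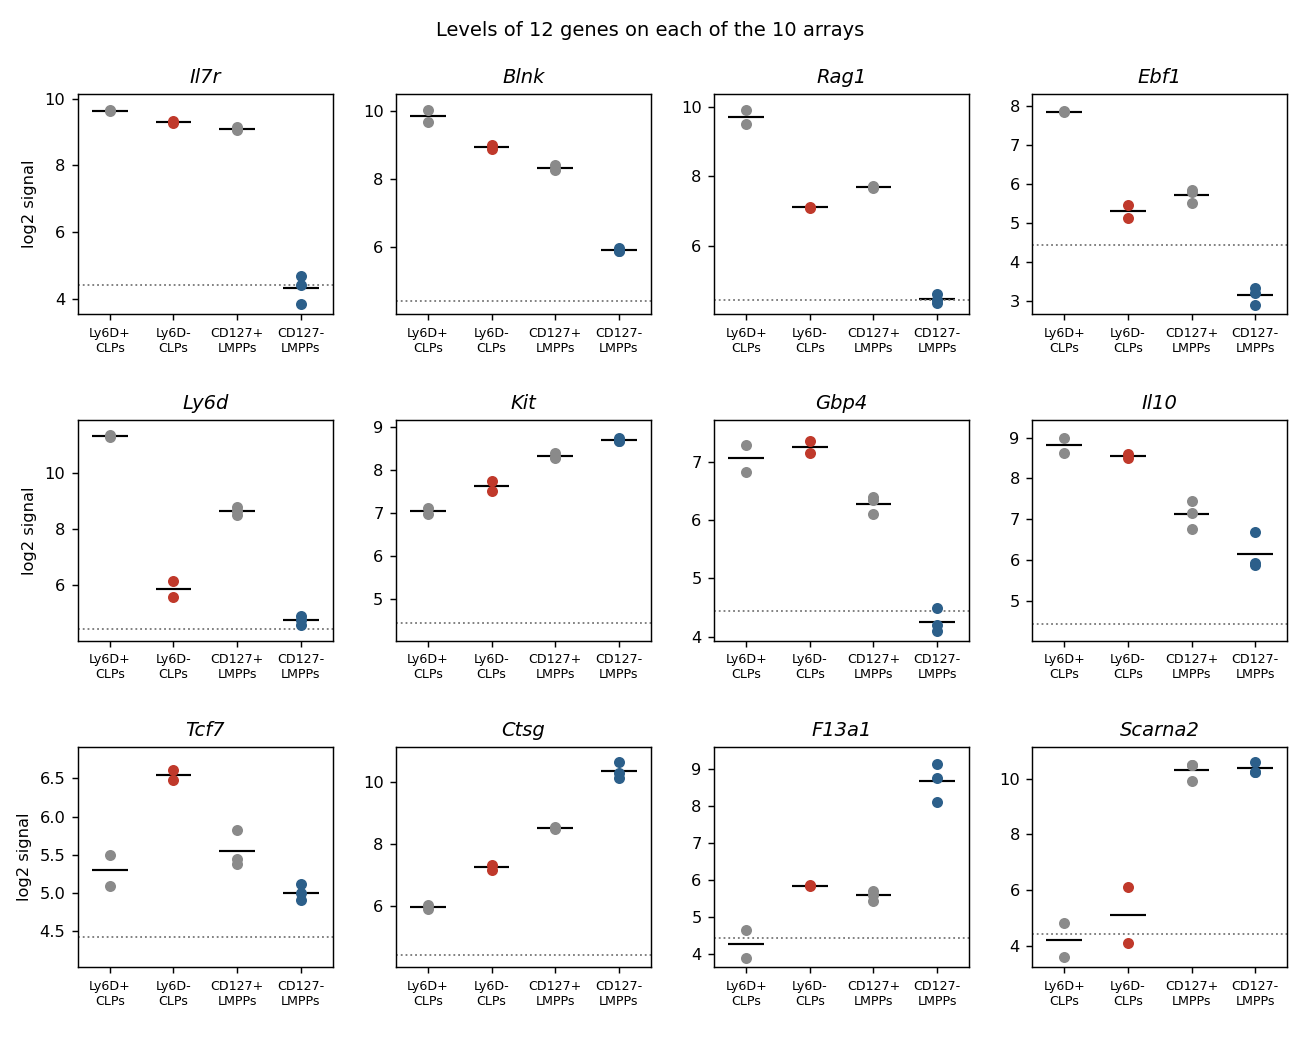
Levels of 12 genes (log2 signal, vertical axes differ between panels) on each array of Ly6D+ CLPs, Ly6D- CLPs (red), CD127+ LMPPs and CD127- LMPPs (blue), with a bar at each group mean and the low-signal limit dotted. Il7r, Blnk and Rag1 separate CD127- LMPPs from the other 3 groups, F13a1 is high in CD127- LMPPs, and Scarna2 splits CLP from LMPP arrays.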

How the data were processed

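Sorted bone marrow progenitors were lysed in Trizol, and biotin-labelled targets from their total RNA were hybridised to 10 arrays, per the labels' protocols. The authors' deposited values, 1 for each of 269751 probe sets on an array, were taken as log2 signals that the authors had already normalized, because their range fits that scale. Neither the log base nor the summary method, normalization or build is given in the sources used here, and Affymetrix Power Tools is the one program in the submitters' processing notes. No further normalization was made. Precision is limited by how few arrays there are.

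Probe sets that the platform annotation pairs with 1 symbol (233753) were averaged to 23152 genes, with a median of 8 per gene and 2319 genes on 1. Probe sets with several symbols (5106) or none (30892) were not used. In the RefSeq gene table of GRCm38.p6, 20875 symbols were current, 2247 matched 1 gene as an older name, 27 matched several and 3 were not found. Titles gave groups and replicate numbers. All 10 arrays entered limma 3.58.1 in R 4.3.3 (lmFit and eBayes) with 4 group means, and two-sided p-values were adjusted over all genes by the method of Benjamini and Hochberg. SE is the standard error from limma. The fit was tested on simulated data. Plots were made in Python 3.11.15 with matplotlib 3.10.9, with pandas 2.3.3 and numpy 2.4.6 for tables.

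The naming rule took the 10 largest called differences each way whose arrays did not overlap and whose brighter mean passed the low-signal limit, without predicted, small RNA, immunoglobulin or T cell receptor genes, then the sort markers, then up to 4 called members of each list, or the largest where none was called. Further members are named to account for a list, after their values were seen. The comparison, the lists and the rule were chosen with earlier results of these data known, and some genes stand in several lists. Alternatives were quantile normalization or median centring, 1 probe set per gene (the median or the brightest), no dim genes, trend and robust settings, only the 5 compared arrays, replicate number as a block, weights for arrays, a 2-fold minimum, and each array left out.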

Additional observations from a re-analysis of the deposited data

How the results depend on the processing

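The 1643 genes called, 678 higher and 965 lower in Ly6D- CLPs, were 1578 (802 higher, 776 lower) with quantile normalization and 1497 (644 and 853) with median centring. They were 824 (349 and 475) with the median probe set, 1093 (583 and 510) with the brightest one and 2530 (928 and 1602) without dim genes. Trend and robust settings gave 2551 (1023 and 1528), the 5 compared arrays alone 664 (273 and 391), array weights 1115 (445 and 670) and the 2-fold threshold 518 (232 and 286). Leaving out 1 array gave 808 to 1151 genes, 294 to 477 of them higher and 420 to 722 lower, where a group left with 1 array was assumed to vary like the others. The cause of these moves was not tested. The replicate numbers pair only 2 arrays of each group, and same-numbered arrays deviated from their group means with correlations of 0.00903 and 0.127. Ly6D- CLP array 1 and CD127- LMPP array 3, which differ in number, reached 0.136, so 0.127 does not mark a pair. With the replicate number as a block, 1156 genes were called, 445 higher and 711 lower.

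Of 86 genes named by the rule, 82 were called, 59 of them also without each of the 5 arrays in turn, and 41 in all of the 14 settings other than the 2-fold threshold. In the count of 41, genes too dim for the fit without dim genes, such as Mir3095 and Gzmc, were absent from that fit. They were taken as kept there. The brightest probe set turned the sign of Itgax in Ly6D- CLPs against CD127- LMPPs (0.76 as reported, -0.15), of Cpa3 between the LMPP groups (0.97, -0.070) and of Il18r1 between Ly6D- CLPs and CD127+ LMPPs (0.84, -0.025), and none of the 3 passed with that probe set. The cause was not tested. Genes near the low-signal limit, 48.0% of all under it in mean level, may have differences that the scale compresses, which was not tested.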
